A study of Mus musculus with 15 samples.

Results

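To follow transcription factors that direct macrophage activation, 10 genes were selected by symbol, namely Cebpb, Maf, Runx1, Xbp1, Bcl6, Batf, Nfil3, Prdm1, Egr1 and Egr2. Counts were at hand for 8 of these 10 genes, out of 561 genes on the Mouse Immunology panel of the nanoString nCounter, an instrument that counts barcoded probes hybridized to unamplified mRNA. Egr1 and Egr2 were not analysed here. The cells were RAW 264.7, an established mouse macrophage line, and all of them received lipopolysaccharide (LPS) for 24 hours together with extracellular vesicles (EVs). The EVs had been spun down from the plasma of young adult female C57BL/6J mice that were sham treated or had received whole body irradiation (WBIR) at 2 Gy or at 9 Gy, and were bled on day 3 or day 7. This gave 5 groups of 3 samples, called sham EVs, 2 Gy day 3 EVs, 2 Gy day 7 EVs, 9 Gy day 3 EVs and 9 Gy day 7 EVs, and no group without LPS or without EVs was among the 15 samples. The labels give no collection day for the sham EVs. Of the samples titled as 9 Gy day 3 EVs, replicates 1 and 2 carry a day label of 7, and they were placed by title. Neither the labels nor the methods say whether the samples of a group came from separate cultures or separate EV preparations, and the methods say of the panel only that samples were run in triplicate, so that p-values measure only the spread between these samples, which may be technical.

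Cebpb, Maf, Xbp1, Batf and Nfil3 belong to the basic leucine zipper (bZIP) family, whose proteins grip DNA as dimers. C/EBPβ, the product of Cebpb, is induced in macrophages by LPS and drives cytokine genes such as Il6 as well as the arginase gene. XBP1 is the factor of the unfolded protein response that becomes active after its mRNA is spliced, and it also sustains cytokine production downstream of Toll-like receptors. BATF pairs with Jun proteins and acts together with interferon regulatory factors, NFIL3 is a repressor that restrains Il12b, and MAF favors Il10 over Il12b. BCL6 and PRDM1 (Blimp-1) are zinc finger repressors that hold down inflammatory genes, and RUNX1 is a Runt domain factor of myeloid development with Csf1r among its targets. The counts are of mRNA, give no protein level and do not separate spliced from unspliced Xbp1.

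The 250 bases before the start of Cebpb, Xbp1 and Nfil3 are printed because these genes differ most in their behavior below, Cebpb and Xbp1 being lower and Nfil3 higher with 9 Gy than with 2 Gy EVs under housekeeping scaling. The sequences are from RefSeq on GRCm38.p6 and run 5′ to 3′ on the strand of the gene. Capitals mark TGACG on either strand, the core of the cyclic AMP response element that bZIP factors of the CREB and ATF type bind.
Cebpb, chr2:167688665-167688914, plus strand: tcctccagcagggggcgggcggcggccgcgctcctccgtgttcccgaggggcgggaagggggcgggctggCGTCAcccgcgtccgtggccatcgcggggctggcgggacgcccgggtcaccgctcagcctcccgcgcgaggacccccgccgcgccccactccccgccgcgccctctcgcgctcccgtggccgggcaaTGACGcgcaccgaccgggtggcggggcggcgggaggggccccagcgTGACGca
Xbp1, chr11:5520391-5520640, plus strand: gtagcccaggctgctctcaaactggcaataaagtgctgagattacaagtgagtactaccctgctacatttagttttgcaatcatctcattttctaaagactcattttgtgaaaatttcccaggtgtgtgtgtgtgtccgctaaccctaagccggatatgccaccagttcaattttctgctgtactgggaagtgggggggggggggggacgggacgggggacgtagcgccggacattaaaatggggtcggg
Nfil3, chr13:52981040-52981289, minus strand: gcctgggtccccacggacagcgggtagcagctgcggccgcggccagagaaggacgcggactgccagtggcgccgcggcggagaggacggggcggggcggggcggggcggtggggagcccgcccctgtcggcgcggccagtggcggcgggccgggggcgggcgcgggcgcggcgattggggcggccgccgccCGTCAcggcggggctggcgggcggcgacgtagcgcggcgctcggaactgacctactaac
The RefSeq table held 9 such windows for 7 of the selected genes, and none for Maf. TGACG was found in 5 of the 9 windows, against 17.8% of all 32851 windows of this length. Cebpb carried it 3 times, at 180, 53 and 7 bases before the start, and Nfil3 once at 59 bases. Batf held it at 98 bases, Prdm1 at 38 bases and one window of Bcl6 at 72 and 56 bases, whereas the Xbp1 window and both Runx1 windows did not contain these letters. In Bcl6 the match nearest to the start shares letters with a CACGTG match. The Cebpb and Nfil3 windows were alike in base composition, at 81.6% G and C each, while the Xbp1 window stood at 50.4% and the median of all windows at 52.4%. Searched in addition on both strands were TATAAA (0 of the 9 windows, 12.4% of all), GGGCGG (4, 32.7%), CCAAT (4, 33.8%), CACGTG (2, 6.02%), TGANTCA (1, 6.75%), TTNNGCAA (1, 9.56%) and the core of the interferon-stimulated response element (0, 2.98%). TGACG was chosen for the capitals after these counts were seen, and a match of letters does not show that a factor binds there.

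Raw counts were divided by a factor per sample, the geometric mean of 14 housekeeping genes, to give normalized counts. Total raw counts per sample were 43176 to 87899 in the 9 Gy day 3 group and 453178 to 837995 in the other groups. The housekeeping mean ran from 69.2 to 124 raw counts in the 9 Gy day 3 group, from 801 to 872 in the 9 Gy day 7 group and from 448 to 603 in the remaining 3 groups. Depth therefore moved with the 9 Gy day 3 group, and its part in the results was not tested. Fewer cells and less RNA per cell cannot be told apart in such samples. The methods describe a fixed amount of RNA per sample, and whether the 9 Gy day 3 samples received it was not tested. Genes were tested where the mean over all samples reached 20 raw counts, which left 269 genes, among them Cebpb, Xbp1, Batf, Nfil3, Bcl6 and Runx1. Maf, with a mean of 10 raw counts, and Prdm1, with 5.67, were below this limit and are described without a test. Each of the 6 tested factors reached 20 raw counts in at least 1 sample of every group other than 9 Gy day 3.

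Cebpb showed the widest separation between groups. Its normalized counts in the 3 samples were 1886, 1141 and 2281 in the sham group, 1723, 1327 and 1306 in the 2 Gy day 3 group, and 1774, 1186 and 1282 in the 2 Gy day 7 group. In the 9 Gy day 3 group they were 261, 288 and 575, and in the 9 Gy day 7 group 295, 270 and 561. Every 9 Gy sample lay below every other sample, and replicate 3 was the highest in both 9 Gy groups. The 9 Gy day 3 values rest on 44, 72 and 174 raw counts and the 9 Gy day 7 values on 600, 527 and 1191. The mean normalized count was almost the same at both 9 Gy days, 375 ± 174 and 375 ± 161 (SD, n = 3). The part of depth in these values was not tested.

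Xbp1 was next in order of separation. Normalized counts were 493, 391 and 698 in the sham group, 401, 398 and 430 in the 2 Gy day 3 group, and 514, 398 and 361 in the 2 Gy day 7 group. They were 249, 284 and 297 in the 9 Gy day 3 group and 233, 261 and 240 in the 9 Gy day 7 group, again all below every sample of the other 3 groups. The sham samples were the most variable, with an SD of 156 around a mean of 528, against an SD of 14.8 around 245 in the 9 Gy day 7 group.

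Batf separated at 9 Gy day 7 only, and only once scaled to the housekeeping genes. With sham EVs its normalized counts were 194, 174 and 197, in the 2 Gy day 3 group 196, 187 and 170, and in the 2 Gy day 7 group 153, 181 and 177. The 9 Gy day 3 samples, at 142, 116 and 188, overlapped the sham samples through replicate 3. The 9 Gy day 7 samples were tightly placed at 115, 120 and 111, below every sham and 2 Gy sample. Their raw counts of 233 to 236 lay inside the sham range of 215 to 261, so the separation was absent before scaling.

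Nfil3 moved against these bZIP genes. Its normalized counts were 90.3, 69.2 and 85.8 in the sham group, 75.1, 57.9 and 59.8 in the 2 Gy day 3 group, and 70.9, 65.6 and 84.9 in the 2 Gy day 7 group. In the 9 Gy day 3 group they were 83.0, 116 and 109, from 14, 29 and 33 raw counts, and in the 9 Gy day 7 group 88.5, 103 and 87.1. The 9 Gy samples overlapped the sham samples on both days, while all 3 samples of 9 Gy day 7 EVs lay above all 6 samples with 2 Gy EVs.

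Maf, the remaining bZIP gene, was near the bottom of the counting range. Raw counts were 15, 12 and 13 in the sham group, 10, 17 and 8 in the 2 Gy day 3 group, 9, 9 and 7 in the 2 Gy day 7 group, 1, 1 and 5 in the 9 Gy day 3 group, and 11, 17 and 15 in the 9 Gy day 7 group. The lowest count in the table is 1, so that a difference in Maf was not detectable at this depth in the 9 Gy day 3 group.

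Of the zinc finger repressors, Bcl6 had normalized counts of 93.9, 50.8 and 88.9 in the sham group, 55.8, 56.5 and 51.6 in the 2 Gy day 3 group, and 59.1, 72.5 and 49.7 in the 2 Gy day 7 group. In the 9 Gy day 3 group it stood at 53.3, 32.0 and 23.1, which are only 9, 8 and 7 raw counts, and in the 9 Gy day 7 group at 36.9, 51.2 and 44.3. Sham replicate 2 lay below the highest sample of each irradiated group, so that every group overlapped the sham samples, while sham replicates 1 and 3 were above all 12 irradiated samples. Prdm1 had raw counts of 4, 2 and 5 in the sham group, 6, 4 and 6 in the 2 Gy day 3 group, 12, 9 and 9 in the 2 Gy day 7 group, 1, 1 and 2 in the 9 Gy day 3 group and 8 in every sample in the 9 Gy day 7 group. Once normalized, the 2 Gy day 7 samples of Prdm1 (8.87, 6.28 and 7.72) were all above the sham samples (3.61, 1.54 and 3.77), a difference of a few counts that was not tested.

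Runx1 was measured close to the filter. Its normalized counts were 20.8, 18.5 and 26.4 in the sham group, 19.2, 18.4 and 19.4 in the 2 Gy day 3 group, and 14.04, 23.72 and 13.72 in the 2 Gy day 7 group. With 9 Gy day 3 EVs they were 29.64, 8.008 and 16.51, from 5, 2 and 5 raw counts, and included the highest value of any group and nearly the lowest. With 9 Gy day 7 EVs they were 13.77, 16.90 and 8.003, all below the sham samples but not below the 2 Gy day 7 samples.

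**Figure D1:**
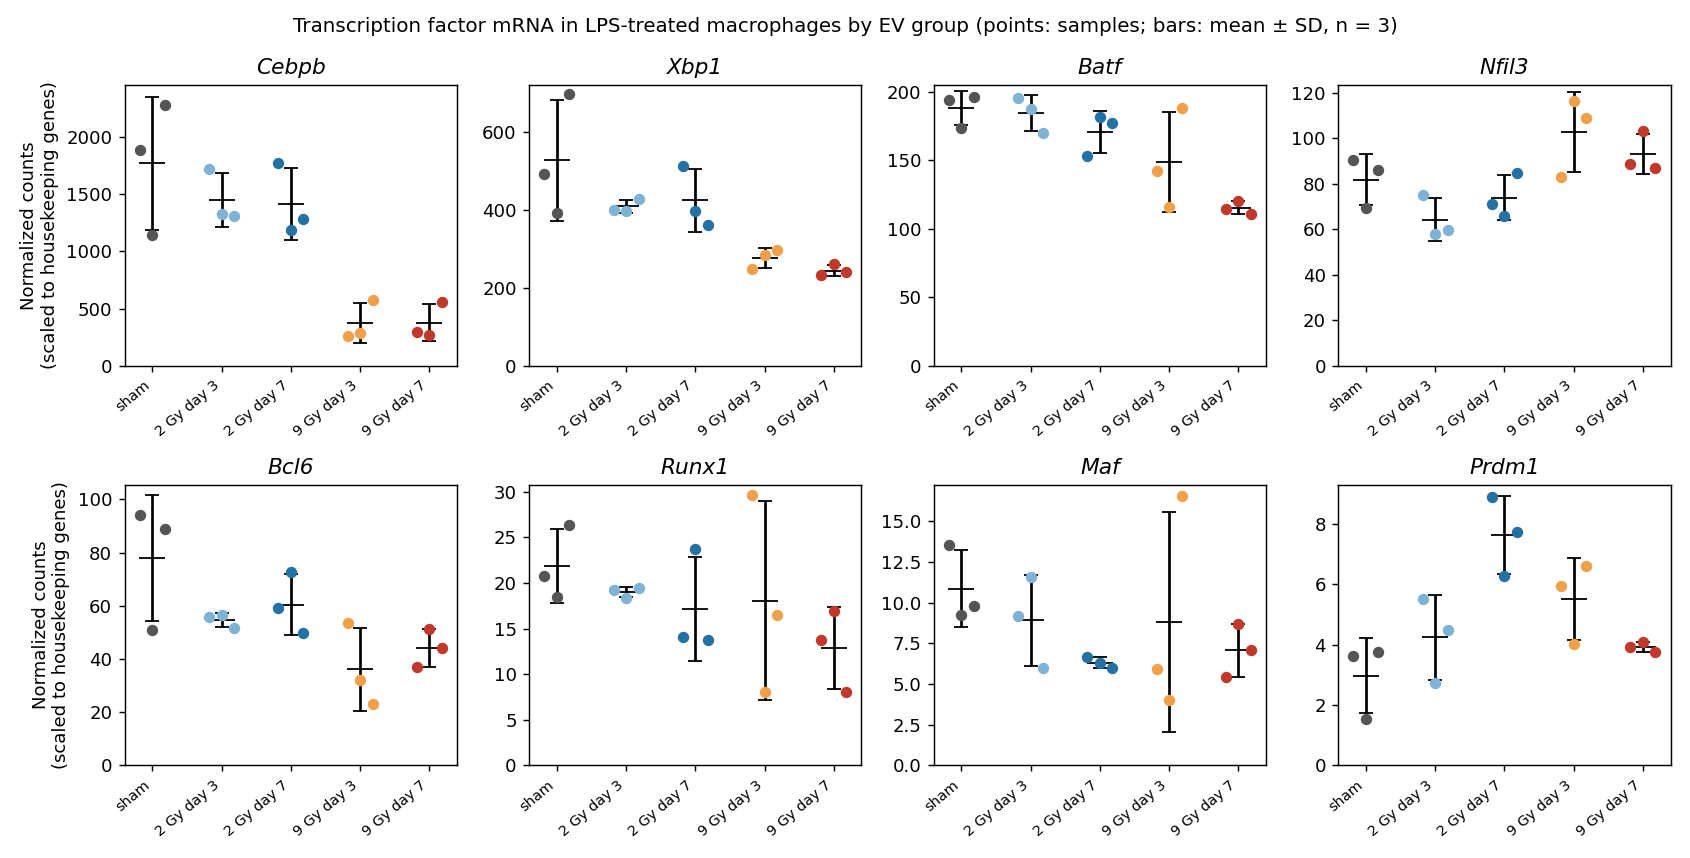
Normalized counts (vertical axis, starting at 0) of the 8 measured factors in each of the 5 EV groups, with 1 point per sample and bars for the mean ± SD of 3 samples. For Cebpb all samples with 9 Gy EVs lie between 261 and 575 and all others at 1141 or above, while for Maf and Prdm1 the values rest on few counts.

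2 Gy EVs and sham EVs were compared first, to ask whether EVs from the lower dose altered these factors. With 2 Gy day 3 EVs the log2 fold changes of the 6 tested factors ran from -0.51 for Bcl6 to -0.03 for Batf, and in the 2 Gy day 7 group from -0.36 for Bcl6 to -0.14 for Batf. The test called 0 of the 6 on either day, as it called 0% of all 269 genes in both comparisons (edgeR quasi-likelihood test, Benjamini-Hochberg adjusted p under 0.05). At an unadjusted p under 0.05 there were 0 of the 6 and 7 of all genes on day 3, and 0 of the 6 and 1 of all genes on day 7. In every one of the 6 the 2 Gy samples overlapped the sham samples on both days, whereas 13% of all genes on day 3 and 4.09% on day 7 did not overlap. The 95% interval for Cebpb was -1.01 to 0.44 on day 3 and -1.05 to 0.40 on day 7, so that smaller changes of either sign were not detectable. For Batf the intervals were narrower, -0.36 to 0.30 and -0.47 to 0.19.

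9 Gy day 3 EVs were then compared with sham EVs. Cebpb fell, with a log2 fold change of -2.22 (SE 0.37, adjusted p = 0.0001989, 3 of 3 samples below all sham samples), which is 4.66-fold lower. Xbp1 was lower by housekeeping scaling, with a log2 fold change of -0.92 (SE 0.20, adjusted p = 0.001944), but at -0.39 to -0.45 it was not called after scaling to the median gene or by TMM, and at 0.09 after scaling to total counts its sign turned. Bcl6 was at -1.19 (SE 0.33, adjusted p = 0.009098) under housekeeping scaling and had no call under those 3 scalings, with -0.18 under total counts. Once replicates 1 and 2, whose day labels conflict, were omitted, 1 sample was left in this arm, with its spread taken from the other groups. Cebpb was then at -1.62 and still called (SE 0.50, adjusted p = 0.0305), while Xbp1, at -0.83 with the SE up to 0.31, was not (adjusted p = 0.06682). Without 9 Gy day 3 replicate 3 the change in Bcl6 was -0.91 and was no longer called (adjusted p = 0.05672). Batf at -0.33 (adjusted p = 0.1191), Runx1 at -0.38 (adjusted p = 0.4927) and Nfil3 at 0.35 (adjusted p = 0.1423) did not pass. Batf was called lower without 9 Gy day 3 replicate 3 (-0.56, adjusted p = 0.01631), but its sign turned under median scaling (0.20), TMM (0.14) and total counts, where it was called higher (0.68, adjusted p = 0.005774). In all, 3 of the 6 were called lower and 0 higher, beside 41.3% of all genes called lower and 11.2% called higher. Cebpb and Xbp1 did not overlap the sham samples, beside 55.8% of all genes. The count of 3 in 6 is near the background. Among the 6, Cebpb was set apart by the size of its change. It ranked 19 from the lowest among the 269 genes, so that other genes of the panel fell further.

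9 Gy day 7 EVs were compared with sham EVs likewise, from samples with total raw counts of 453178 to 617963, against 568097 to 837995 in the sham and 2 Gy groups, but with the higher housekeeping mean given above. Cebpb fell with a log2 fold change of -2.24 (SE 0.35, adjusted p = 0.0001185), 4.71-fold, and was lower in 3 of 3 samples. Xbp1 was at -1.11 (SE 0.19, adjusted p = 0.0002279) and kept its call under each scaling except total counts, where it was -0.01. Batf at -0.71 (SE 0.15, adjusted p = 0.001321), Bcl6 at -0.82 (SE 0.24, adjusted p = 0.009798) and Runx1 at -0.77 (SE 0.30, adjusted p = 0.03947) were called lower under housekeeping scaling and lost the call under median and TMM scaling. Under total counts Batf was called higher (0.40, adjusted p = 0.04122), while Bcl6 (0.28) and Runx1 (0.35) were positive without a call. Runx1 was not called with the 10 abundant housekeeping genes alone either, at -0.56. Runx1 also lost it without 9 Gy day 7 replicate 1 or 3 or sham replicate 1 or 3, at -0.82, -0.51, -0.80 and -0.61, and with only the groups compared in the fit, at -0.77 (adjusted p = 0.0604). Nfil3 was at 0.18 (SE 0.17, adjusted p = 0.3516). Thus 5 of the 6 were called lower and 0 higher, beside 49.1% and 11.9% of all genes. Cebpb, Xbp1, Batf and Runx1 did not overlap the sham samples, beside 61.7% of all genes.

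**Figure D2:**
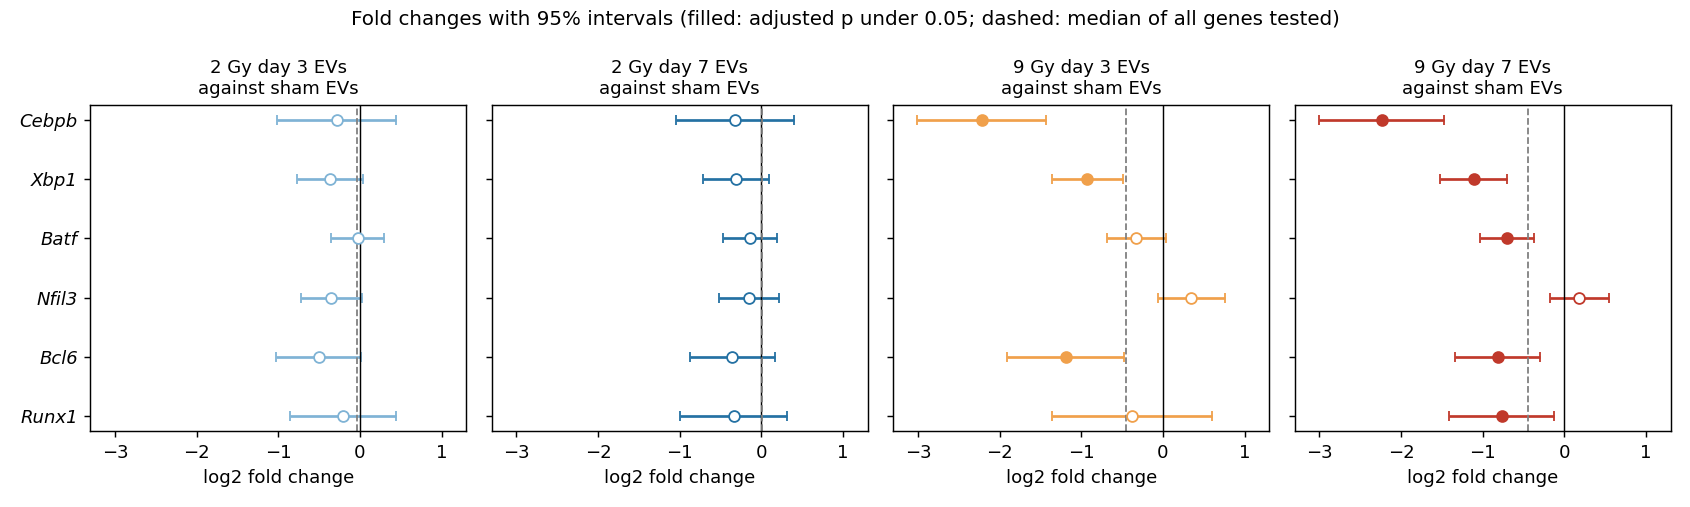
Log2 fold changes of the 6 tested factors against sham EVs (horizontal axis) with 95% intervals, 1 panel per irradiated group; filled points have an adjusted p under 0.05 and the dashed line is the median of all 269 genes. The Cebpb points lie at -2.22 and -2.24 with 9 Gy EVs and at -0.29 and -0.32 with 2 Gy EVs, and the filled points of Xbp1, Bcl6, Batf and Runx1 are not all filled under other scalings.

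The median log2 fold change of all 269 genes was itself -0.46 in the 9 Gy day 3 group and -0.45 in the 9 Gy day 7 group, so that part of each lower value was shared with the panel. Relative to it, Cebpb and Xbp1 were lower on both days, Bcl6 was lower on both days, and Nfil3 was higher on both days. Batf and Runx1 lay just above the panel median on day 3 and below it on day 7. TMM scaling moved the median to 0.01 and 0.03, scaling to the median gene to 0.07 and 0.06, and scaling to total counts to 0.56 and 0.65. The share of called genes that were lower went from 78.7% and 80.5% under housekeeping scaling to 50.4% and 50.3% under TMM and to 21.4% and 17.8% under total counts. Cebpb was called lower in all of these, with the smallest change under total counts at -1.24 and -1.19. Nfil3 was called higher than with sham EVs on both days under TMM (0.82 and 0.67), median scaling (0.88 and 0.70) and total counts (1.36 and 1.29). Under scaling to the 14 housekeeping genes it was called on neither day, and with the 10 abundant ones alone it was called on day 3 (0.53, adjusted p = 0.03167), as it was with counts under 20 set to 20 (0.48, adjusted p = 0.02889).

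**Figure D3:**
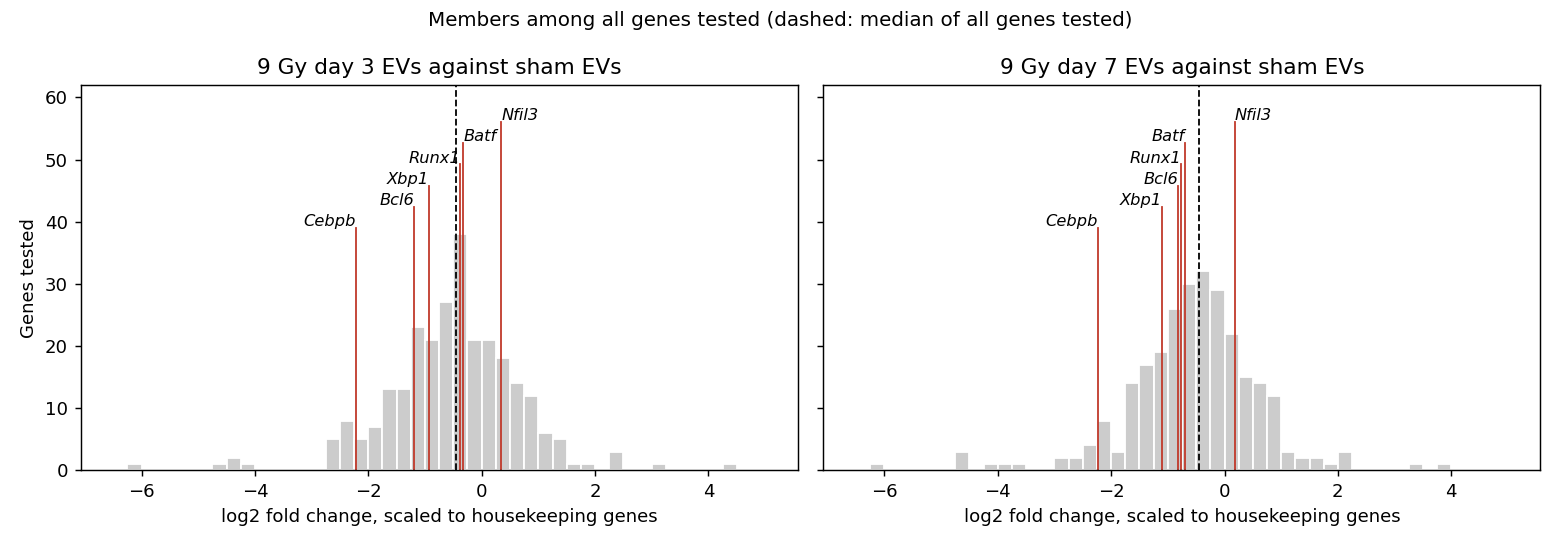
Histogram of the log2 fold changes of all 269 tested genes in the 9 Gy day 3 group (left) and 9 Gy day 7 EVs (right) against sham EVs, with a red line at each of the 6 tested factors and a dashed line at the median of all genes. Cebpb lies in the lower tail on both days, Nfil3 is the only one of the 6 above 0, and the position of 0 depends on the scaling.

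**Figure D4:**
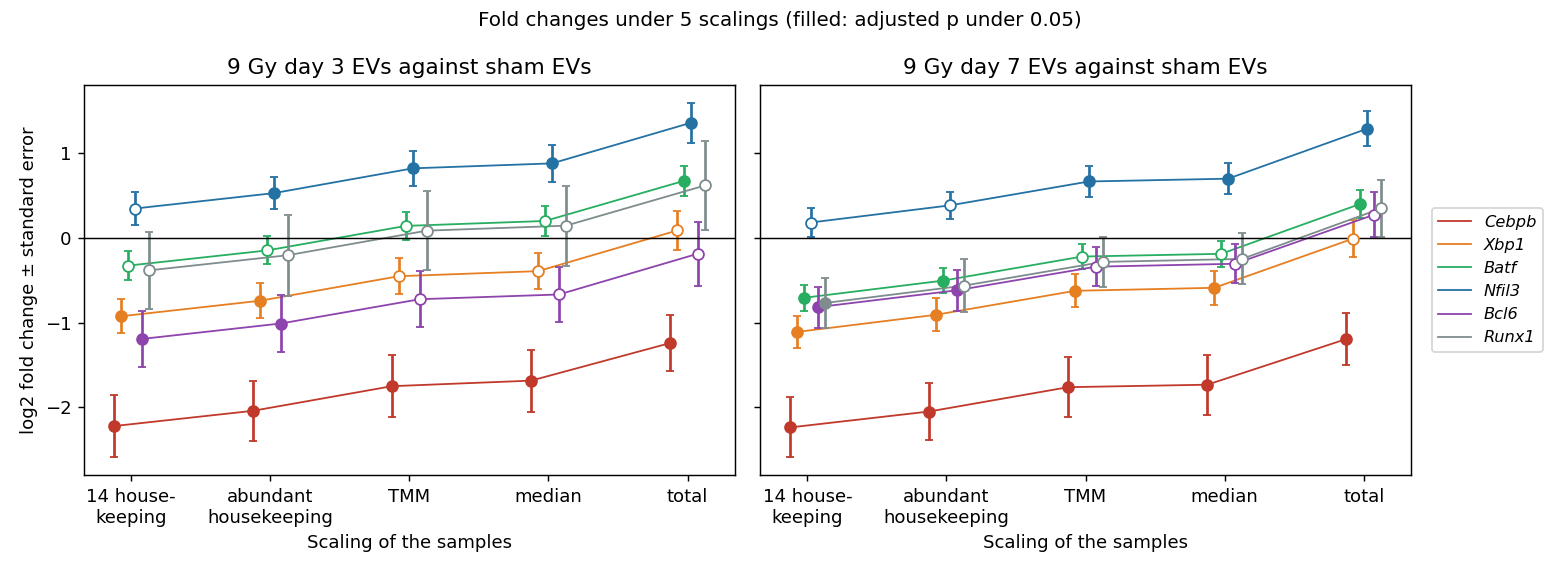
Log2 fold changes against sham EVs (vertical axis, ± SE) of the 6 tested factors under 5 ways of scaling the samples (horizontal axis), with filled points for an adjusted p under 0.05. The order of the factors is nearly kept while all of them shift together, Cebpb is filled throughout, and the sign of Batf, Runx1, Xbp1 and Bcl6 turns under at least 1 scaling on at least 1 day.

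9 Gy EVs were next set against 2 Gy EVs over both days, 6 samples in each arm. Samples sharing a replicate number deviated together between the days of a dose. The correlation r over the tested genes ran from 0.365 to 0.779 at 2 Gy and from 0.33 to 0.717 at 9 Gy. The 6 samples of an arm were therefore not independent. Neither the fit nor a replicate block shared by both doses modelled this, so the adjusted p-values here may be too small. Cebpb was lower in all 6 samples than in all 6 with 2 Gy EVs, with a log2 fold change of -1.92 (SE 0.25, adjusted p = 1.487e-05) or 3.80-fold. Nfil3 rose, at 0.52 (SE 0.13, adjusted p = 0.00276) or 1.43-fold, and passed under every alternative run for it, from 0.47 to 1.65. Xbp1 was at -0.68 (SE 0.14, adjusted p = 0.0007394) with no overlap of the samples, Batf at -0.43 (SE 0.11, adjusted p = 0.003987) and Bcl6 at -0.57 (SE 0.21, adjusted p = 0.02578), each called lower under housekeeping scaling but not under median or TMM scaling, where Batf turned to 0.05 and 0.03. With the 10 abundant housekeeping genes alone Batf (-0.24) and Bcl6 (-0.38) were not called either. Under total counts the calls turned round, and Xbp1 (0.46, adjusted p = 0.01693), Batf (0.70, adjusted p = 0.0001205), Bcl6 (0.56, adjusted p = 0.04566) and Runx1 (0.83, adjusted p = 0.03005) were called higher. Bcl6 lost the call without 9 Gy day 3 replicate 2 or 3, 9 Gy day 7 replicate 1 or 2 Gy day 7 replicate 2, at -0.55, -0.43, -0.51 and -0.49. Runx1 at -0.30 (adjusted p = 0.3339) did not pass. Omitting the 2 samples with a conflicting day label, Batf was at -0.27 and not called (adjusted p = 0.06197). In this comparison 4 of the 6 were called lower and 1 higher, beside 52% and 15.6% of all genes.

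Between the days no factor was called. From day 3 to day 7 the log2 differences ran from -0.13 for Runx1 to 0.20 for Nfil3 with 2 Gy EVs, and from -0.39 for Runx1 to 0.38 for Bcl6 with 9 Gy EVs, where Batf at -0.38 had the only unadjusted p under 0.05 (adjusted p = 0.9856). Of all genes 0% were called with 2 Gy EVs and 0% with 9 Gy EVs, with 4 and 6 genes at an unadjusted p under 0.05. With the replicate number as a block and only the groups compared in the fit, edgeR called 27 genes with 2 Gy EVs, 3 lower and 24 higher on day 7, and 0 with 9 Gy EVs, but still 0 of the 6 factors at either dose. The 95% interval of the Cebpb day difference was -0.77 to 0.69 with 2 Gy EVs and -0.78 to 0.75 with 9 Gy EVs, and that of Xbp1 was -0.35 to 0.46 and -0.62 to 0.25. The interaction of dose and day, which asks whether the day difference itself depended on the dose, called 0 of the 6 and 0 of the 269 genes by edgeR (4 of all genes and 0 of the 6 at an unadjusted p under 0.05), and DESeq2 with its own size factors called 0 of the 6.

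Ratios of the raw counts of 2 factors inside a sample do not depend on scaling, and were examined for the 15 pairs of tested factors. The size of such a ratio also reflects the probes, so only its change between groups is described, with no test. In 5 of the 15 pairs the 6 samples with 9 Gy EVs did not overlap the other 9 samples, beside 38.3% of all 36046 pairs of tested genes, so that the count is no larger than that of the panel. Cebpb over Nfil3 was 16.5 to 26.6 in the sham group, 21.85 to 22.96 in the 2 Gy day 3 group and 15.11 to 25.01 in the 2 Gy day 7 group, but 2.48 to 5.27 in the 9 Gy day 3 group and 2.62 to 6.44 in the 9 Gy day 7 group. Batf over Nfil3 was 2.15 to 2.51 in the sham group, 2.61 to 3.24 and 2.09 to 2.77 with 2 Gy EVs, and 1 to 1.73 and 1.17 to 1.29 with 9 Gy EVs. Cebpb over Xbp1 went from 2.91 to 3.82 in the sham group down to 1.014 to 1.933 and 1.033 to 2.335 with 9 Gy EVs. In these samples, and whatever the scaling, the ratios moved toward Nfil3 and away from Cebpb with 9 Gy EVs, Cebpb being lower against Xbp1, Batf and Nfil3, and Batf and Xbp1 being lower against Nfil3.

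**Figure D5:**
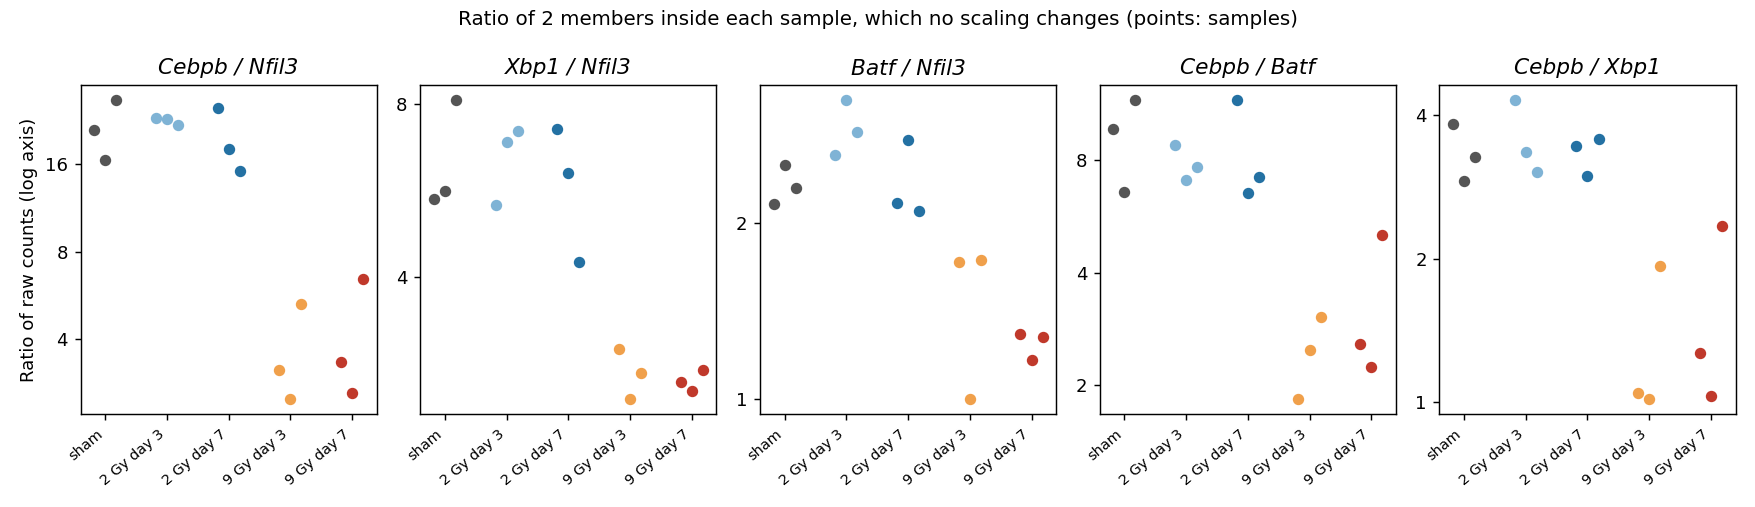
Ratio of the raw counts of 2 factors in each sample (vertical axes, log scale; each panel has its own range) for the 5 pairs in which samples with 9 Gy EVs and all others did not overlap, 1 point per sample. The ratio of Cebpb to Nfil3 is at most 6.44 in the 9 Gy groups and at least 15.1 elsewhere.

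Genes whose 4 log2 fold changes against sham EVs were closest to each factor were named by the smallest root mean square difference over those 4 values, which share the sham samples. Closest to Cebpb were Tollip (0.16), an adaptor that dampens Toll-like receptor signaling, and Irf7 (0.19), a factor of the interferon response. Xbp1 was closest to Hcst and Nfkbia (0.12 each), Batf to Card9 (0.05) and Ikbkg (0.10), and Nfil3 to Pml (0.11) and Psmd7 (0.14). Bcl6 was closest to Ski (0.08) and Clu (0.10), and Runx1 to Stat3 and Jak2 (0.13 each).

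Other transcription factors on the panel gave the setting for these values. Of 4 tested interferon regulatory factors, 2 were called lower with 9 Gy EVs on each day, of 4 NF-kB subunits 1, and of 14 further factors 7, beside 41.3% of all genes on day 3 and 49.1% on day 7, while 1 NF-kB subunit (day 3) and 2 of the further factors (each day) were called higher. After TMM scaling the further factors were 3 lower and 3 higher on day 3 and 5 lower and 5 higher on day 7, the NF-kB subunits were 1 lower and 3 higher on each day, and the interferon regulatory factors were 1 lower on each day and 1 higher on day 7, so that the direction of these lists was not independent of the scaling. Irf7 at -2.44 and -2.36 and Nfkb2, the p100 subunit of NF-kB, at -2.30 and -2.06 changed by about as much as Cebpb and were called lower on both days under the 5 scalings compared. Litaf at -1.12 and -1.35 was called lower on both days except under total counts. Irf8 (-1.22 and -0.60), Aire (-1.70 and -1.66) and Pou2f2 (-1.32 and -1.40) lost the call on at least 1 day under other scalings besides total counts.

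Textbook targets of the selected factors were counted likewise, 15 of them tested. With 9 Gy day 3 EVs 6 were called lower and 2 higher, and in the 9 Gy day 7 group 7 lower and 2 higher, beside 41.3% and 11.2% of all genes on day 3 and 49.1% and 11.9% on day 7, shares close to those of the targets. Under total counts the targets were 3 lower and 5 higher on day 3 and 5 lower and 7 higher on day 7. Il6, a target of C/EBPβ and XBP1, went from 2290 to 4483 raw counts in the sham group to 4 to 13 in the 9 Gy day 3 group and 61 to 101 in the 9 Gy day 7 group, with log2 fold changes of -6.10 and -6.02. Il1b, also bound by C/EBPβ, was at -4.53 and -4.52. Il12b, which NFIL3 and MAF restrain and BATF family proteins favor, went from 76 to 113 raw counts in the sham group to 4 to 13 in the 9 Gy day 7 group and was at the lowest count of 1 in all 3 samples in the 9 Gy day 3 group. These 3 cytokine genes were called lower on both days under all 5 scalings. The 2 genes called higher were Csf1r, a target of RUNX1 (2.29 and 1.87), and Ifnb1, linked to XBP1 (4.25 and 3.95), which were picked after their values were seen and were higher under all 5 scalings as well. Nos2, another C/EBPβ target and likewise picked afterwards, was at -0.36 and -0.27 and did not pass.

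The cells were checked against marker genes. All 6 macrophage markers on the panel were counted in every group, with summed raw counts of 4722 to 8511 in the sham and 2 Gy groups, 300 to 888 in the 9 Gy day 3 group and 3548 to 5728 in the 9 Gy day 7 group. Of these 6, 4 were called lower and 1 (Csf1r) higher with 9 Gy EVs on both days, beside 41.3% lower and 11.2% higher of all genes on day 3 and 49.1% and 11.9% on day 7. They were 3 lower on each day under TMM and 1 and 0 lower under total counts. T cell markers (5 on the panel) summed to at most 211, B cell markers (5) to at most 73 and NK cell markers (2) to at most 42 raw counts in any sample. Most of the T cell sum was Cd8a, at 9 to 12 raw counts in the 9 Gy day 3 group and 74 to 175 in the others, which was called lower with 9 Gy EVs on both days (-0.89 and -0.82) under housekeeping scaling but not by TMM, median scaling or total counts. Of the B cell markers Ms4a1 was called lower on day 7 (-0.71) under the 14 housekeeping genes and under none of the other 4 scalings. Once normalized, the macrophage sum was 3907 to 6409 in the sham and 2 Gy groups, 1778 to 2932 in the 9 Gy day 3 group and 1745 to 2697 in the 9 Gy day 7 group. The marker levels were thus lower in both 9 Gy groups under housekeeping scaling, and their part in the factor values was not tested.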

How the data were processed

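The authors deposited raw nCounter counts of 561 genes in 15 samples, before their normalization in nSolver, whose settings are not given in the sources used here; values of control probes were not used here. Labels and methods differ on the number of EVs per exposure and on the lysis buffer. Genes averaging 20 counts or more entered one edgeR 4.0.16 quasi-likelihood fit of all 5 groups in R 4.3.3, scaled to 14 housekeeping genes, with a prior count of 0.125. P-values were adjusted by Benjamini-Hochberg over 269 genes at a threshold of 0.05. The SE is the absolute log2 fold change over the square root of F. DESeq2 1.42.0 and other scalings, filters, count floors, omitted samples and day placements were alternatives. The interaction and the gene lists were put through alternatives only after the data were seen. The procedure was tested on simulated data.

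The members and lists were chosen with earlier results of these data known. From each list of transcription factors and from the targets at most 3 genes were named, those with the largest change at 9 Gy day 7 among genes past the threshold and without overlap with sham samples at both 9 Gy days. Csf1r, Ifnb1, Nos2, Cd8a and Ms4a1 were named outside this rule, after their values were seen. Samples sharing a replicate number deviated together between the 2 Gy groups (r from 0.365 to 0.779) and between the 9 Gy groups (r from 0.33 to 0.717). Between other groups r took both signs, most widely from -0.656 to 0.646 between the sham and 2 Gy day 7 groups. The numbers were therefore read as pairing the samples between the days of a dose, a reading that rests on few correlations. The reported values come from the fit without a block, and fits with the replicate number as a block were run beside it. Intervals and tests cover the spread between samples, and with few counts also counting error. Sequences come from RefSeq on GRCm38.p6. One result of a gene list is not reported here.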

Additional observations from a re-analysis of the deposited data

How the results depend on the processing

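Of 861 values of the tested factors under the other ways of processing that were tried, 244 kept a call, 546 had none either way (30 of them with another sign), 42 lost a call, 12 gained one and 17 changed sign where either value was called. Cebpb was called lower under every alternative run in the 3 comparisons with 9 Gy EVs, and Nfil3 higher under every alternative run for 9 Gy against 2 Gy EVs. With 9 Gy day 7 EVs against sham EVs, the number of factors called went from 5 to 3 under scaling to the median gene, TMM, total counts, DESeq2 with its own size factors, a mean of at least 100 counts, and a replicate block with only the groups compared. All 5 had been lower, whereas the 3 were Cebpb and Xbp1 lower and Nfil3 higher under median scaling, TMM (76 of all genes lower and 75 higher) and DESeq2, and Cebpb lower and Batf and Nfil3 higher under total counts (31 lower and 143 higher). In the paired fit Bcl6 was at -0.79 (edgeR adjusted p = 0.07443) and Runx1 at -0.79 (0.1147), although samples sharing a number did not all deviate together between those groups. The replicate block called no factor between days, although with only the groups compared in the fit it took the count over all genes from 0 to 27 between the 2 Gy days. For 9 Gy against 2 Gy EVs the number went from 5 to 2 under median scaling, TMM and DESeq2 with its own size factors, and to 3 with abundant housekeeping genes or a mean of at least 100 counts, a limit that leaves 3 of the factors in the test. For 9 Gy day 3 the other settings gave 2 to 4 factors, and under median scaling, TMM and total counts Cebpb alone was lower. Leaving out 1 replicate gave 3 factors throughout for 9 Gy day 3, with Batf in place of Bcl6 without replicate 3, 4 to 5 for 9 Gy day 7 and 4 to 5 for 9 Gy against 2 Gy. Total counts turned the sign of Xbp1 (0.090) and Batf (0.68, called) at 9 Gy day 3, of Batf (0.40, called), Bcl6 (0.28) and Runx1 (0.35) at 9 Gy day 7, and of Xbp1 (0.46), Batf (0.70), Bcl6 (0.56) and Runx1 (0.83) for 9 Gy against 2 Gy, these 4 called higher. Batf turned there also under median scaling (0.054), TMM (0.032) and DESeq2 with its own size factors (0.024), and at 9 Gy day 3, where it had no call, under the same 3 (0.20, 0.14 and 0.16). The cause was not tested. Counts under 20 set to 20, which raises the few counts of the 9 Gy day 3 group before they are scaled up, gave Bcl6 0.13, Runx1 1.95 and Nfil3 0.48 at 9 Gy day 3, the last 2 called, 0.091 and 0.84 for 9 Gy against 2 Gy, and called 2 factors between the 9 Gy days, Bcl6 at -0.95 and Runx1 at -2.67, beside 87 of all 269 genes called lower. The interaction of dose and day called 0 factors under each alternative added for it.

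In the 9 Gy day 3 group Bcl6 and Runx1 rested on 7 to 9 and 2 to 5 raw counts. Nfil3 rested on 14 to 33 and Batf on 24 to 57 there. The part of depth in these values was not tested.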
